A study of Mus musculus with 19 samples.

Results

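Voltage-gated calcium channel subunits and intracellular calcium release channels were followed in developing cortical projection neurons. The group held 10 genes chosen by name: Cacna1a, Cacna1c, Cacna1e and Cacna1g, which encode pore-forming subunits, Cacna2d1, Cacna2d3 and Cacnb4, which encode auxiliary subunits, and Ryr2, Ryr3 and Itpr1, which encode release channels. Of these, 9 were matched by symbol to a probe set, among 18193 genes measured in all, and Itpr1 was not analysed here. Each gene was read from the probe set with the highest mean over the 19 arrays. The arrays covered 9 groups of neurons from C57BL/6 mice: corticospinal motor neurons (CSMN) and callosal projection neurons (CPN), for which the labels name sensorimotor cortex, at embryonic day 18 (E18) and postnatal days 3, 6 and 14 (P3, P6, P14), and corticotectal projection neurons (CTPN), for which they name visual cortex, at P14. Neurons were marked by microspheres taken up at the axon ends and were purified by fluorescence-activated sorting, so a group is defined by its projection target. Each group had 2 arrays from independent collections, except CSMN at P3, which had 3. All groups were of that same strain, and all values below are log2 signal.

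Voltage-gated calcium channels open when the membrane depolarises and let calcium enter the cell. The pore-forming alpha-1 subunit sets the current type: Cacna1a gives P/Q-type current, which drives transmitter release, Cacna1c the L-type current that links activity to transcription, Cacna1e the R-type current, and Cacna1g the low-threshold T-type current. Alpha-2-delta and beta subunits bring channels to the membrane and tune their gating. Ryanodine and inositol trisphosphate receptors release calcium from the endoplasmic reticulum, and ryanodine receptors can be opened by calcium that enters through the plasma membrane. In cortical neurons these channels serve migration, axon growth, synaptic transmission and plasticity.

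The promoter letters of 3 genes are printed because these genes rose together between E18 and P3 and then differed between CSMN and CPN, with Cacna2d3 on the opposite side from the other genes shown. The RefSeq promoter table (GRCm38.p6) held 10 promoters of 6 of the genes, and each window shown is the 250 bases before an annotated transcript start, on the strand of the gene. Capitals mark matches to the GC box GGGCGG on either strand, and neighbouring matches may abut or overlap. The first window is chr14:29721865-29722114 on the minus strand, the second chr5:15934441-15934690 on the plus strand, and the third chr13:12106946-12107195 on the minus strand.
Cacna2d3: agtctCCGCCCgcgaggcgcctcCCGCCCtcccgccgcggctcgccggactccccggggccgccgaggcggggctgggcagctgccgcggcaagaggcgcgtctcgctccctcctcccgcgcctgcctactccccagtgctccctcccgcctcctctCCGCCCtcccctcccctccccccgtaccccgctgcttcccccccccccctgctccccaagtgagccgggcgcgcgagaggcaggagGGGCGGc
Cacna2d1: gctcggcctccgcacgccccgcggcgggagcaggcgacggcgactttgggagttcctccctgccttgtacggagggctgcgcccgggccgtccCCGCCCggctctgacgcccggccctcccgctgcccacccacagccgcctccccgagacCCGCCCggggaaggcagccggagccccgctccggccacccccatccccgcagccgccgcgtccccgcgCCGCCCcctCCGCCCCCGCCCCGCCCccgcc
Ryr2: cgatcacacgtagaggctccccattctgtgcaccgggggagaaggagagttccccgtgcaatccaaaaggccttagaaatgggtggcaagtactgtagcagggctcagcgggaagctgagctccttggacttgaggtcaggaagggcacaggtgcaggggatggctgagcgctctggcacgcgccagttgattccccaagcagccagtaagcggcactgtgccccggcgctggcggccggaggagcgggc
The Cacna2d3 window held 4 GC boxes and 30 CpG dinucleotides, with a G+C content of 80.0%. The Cacna2d1 window held 6 GC boxes and 36 CpG dinucleotides, with 82.4% G+C. The Ryr2 window held no match to any of the 5 motifs searched, and had 14 CpG dinucleotides and 63.2% G+C. Over 32851 promoter windows of this length the medians were 6 CpG dinucleotides and 52.4% G+C, so all 3 windows were richer in both than the median window. The motifs were the GC box, present in 32.7% of those windows, the TATA box TATAAA (12.4%), the CCAAT box CCAAT (33.8%), the cyclic AMP response element TGACGTCA (1.55%) and the E-box CACGTG (6.02%), each on both strands. None of the other 4 motifs was found in the 3 windows shown.

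The sorted groups carried the genes that mark their projection type. Group means of Bcl11b and Fezf2, which specify subcerebral projection neurons, were higher in CSMN than in CPN at each stage, and those of Cux2 and Lhx2, which mark upper-layer neurons, were lower. The CPN arrays of E18 stood apart in other markers: the progenitor list (9 of 9 genes measured) averaged 10.8 and 10.9 there against 5.95 to 7.86 on the other 17 arrays, the cell cycle list (7 of 8) averaged 9.47 and 9.53 against 5.85 to 6.68, and the astrocyte list (8 of 8) averaged 9.48 and 9.67 against 6.81 to 8.60. At E18 the CSMN arrays had 2 of 9 progenitor genes each above the array median, and the CPN arrays 8 and 9. The part of these markers in the E18 differences was not tested. For the 9 genes, changes from E18 to P14 and means over stages that passed are also given without that stage. Those of the other calcium genes described below are not. The E18 type differences, the changes from E18 to P3 and the unequal changes to P3 and P6 have no such value. Array medians lay between 6.42 and 6.62. Replicates of CSMN at P14 correlated least over all genes (r = 0.904, against a lowest value of 0.949 to 0.996 in the other groups). Where leaving out 1 of its arrays changed a call, the value then found stands beside the result. Leaving out the other array moved the group mean the other way.

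The spread of the 9 group means set 4 genes apart. The highest and lowest group means of Cacna2d3 differed by 4.90, more than in 99.6% of all genes, and those of Ryr2 by 4.07, more than in 98.8%, or by 3.00 with its 3 values under 6.62, the highest array median, set to that median. Cacnb4 spanned 3.00 and Cacna2d1 2.93. The 4 pore-forming genes varied less, from 0.78 for Cacna1a to 1.90 for Cacna1g, and Ryr3 spanned 1.41, against a median of 0.86 over all genes. Folds are left out below where any array in the comparison read 6.62 or less. Differences are given ± SE with the p of limma's moderated test, adjusted over the 18193 genes by the Benjamini-Hochberg method, and a gene rose, fell or differed where it was under 0.05. In RNA pooled from many sorted cells, fewer cells of a kind and less RNA per cell cannot be told apart.

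**Figure D1:**
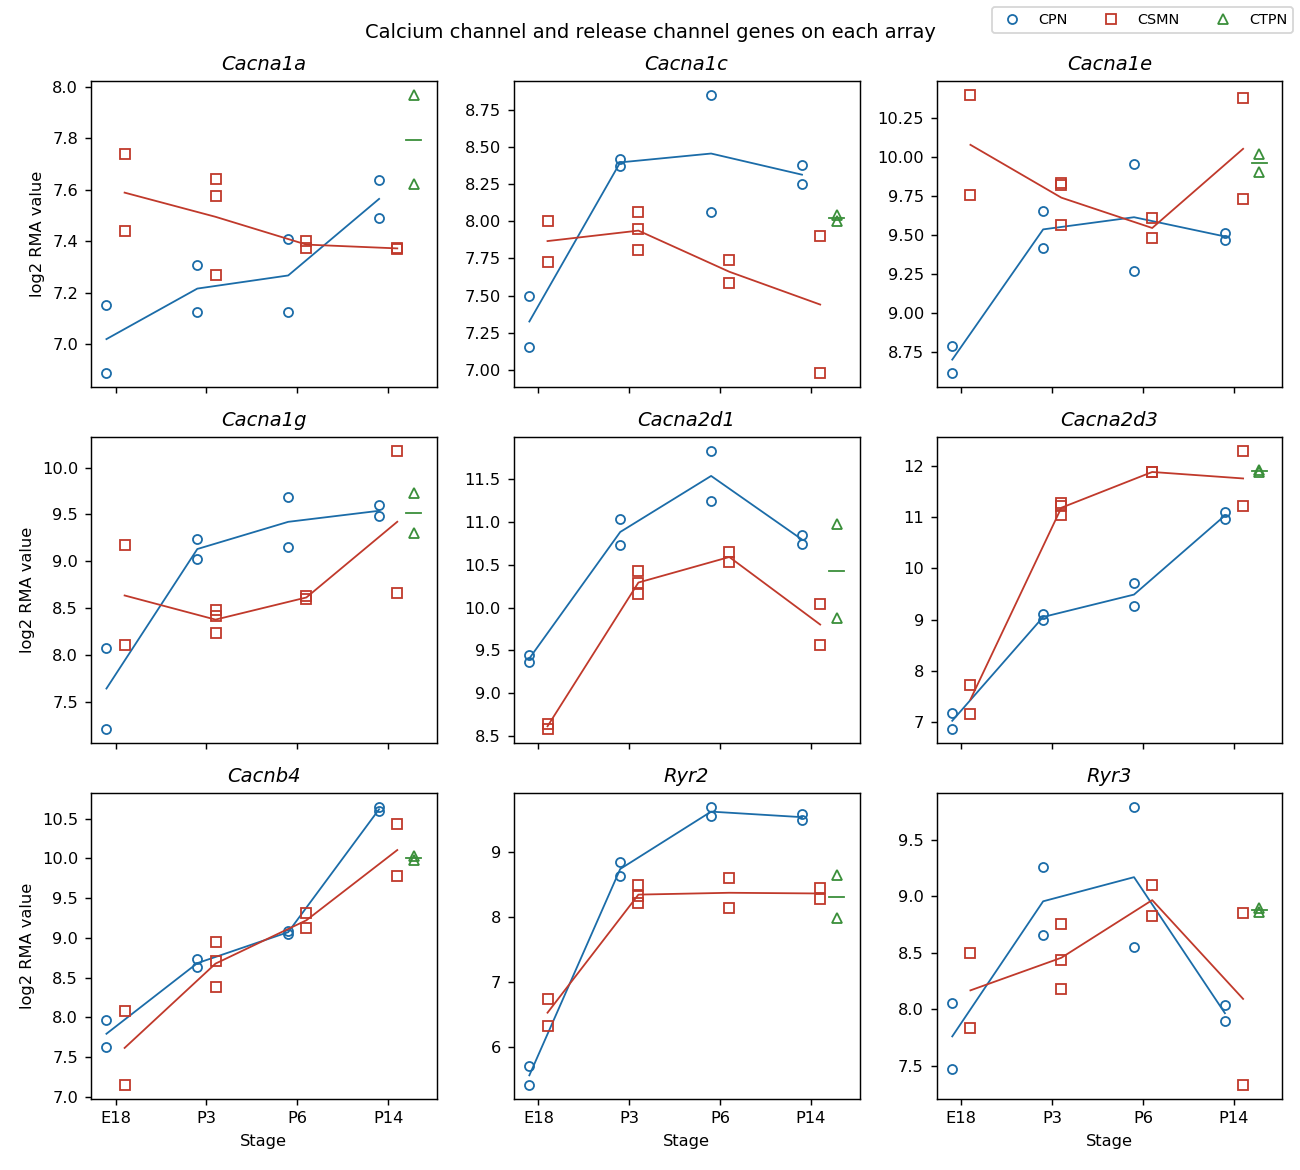
Log2 signal (vertical axis) of the 9 genes on each of the 19 arrays by stage (horizontal axis), with CPN, CSMN and CTPN in separate colours, points for arrays and lines through the group means; each panel has its own vertical scale. Cacna2d3 and Ryr2 have the widest spans of group means (4.90 and 4.07), each lowest in CPN at E18 (7.02 and 5.56). With its values under 6.62 set to that, Ryr2 spans 3.00, as Cacnb4 does. From E18 to P14 in CSMN, Ryr2 rises less than Cacnb4 (1.84 against 2.49).

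Cacna2d3, an auxiliary alpha-2-delta subunit (probe set 1419225_at; gene at chr14:28904943-29722775, GRCm38.p6), had the widest range of the group and rose earlier in CSMN than in CPN. In CPN it read 6.86 and 7.17 at E18, 8.99 and 9.11 at P3, 9.26 and 9.72 at P6, then 11.10 and 10.97 at P14. In CSMN it read 7.16 and 7.71 at E18, then 11.29, 11.23 and 11.05 at P3, 11.89 on both arrays at P6, then 12.30 and 11.22 at P14. The CSMN arrays of P3 already overlapped the CPN arrays of P14, and all CSMN arrays of P3 and P6 lay above all CPN arrays of those stages. The CTPN arrays of P14 read 11.93 and 11.89, in the range of CSMN at P14. The type difference, CSMN minus CPN, was 0.42 ± 0.29 at E18 (adjusted p = 0.358), 2.14 ± 0.27 at P3, or 4.41-fold (adjusted p = 0.00122), and 2.40 ± 0.29 at P6, or 5.28-fold (adjusted p = 0.000581). At P14 it was 0.73 ± 0.29 (adjusted p = 0.305), with a 95% interval of 0.10 to 1.35. That value was 1.26 without CSMN P14 replicate 2. Without replicate 1 it was smaller, as the CSMN array left read 11.22, close to the CPN arrays at 11.10 and 10.97.

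From E18 to P14 Cacna2d3 rose 16.2-fold in CPN (4.02 ± 0.29, adjusted p = 2.77e-07) and 20.1-fold in CSMN (4.33 ± 0.29, adjusted p = 3.32e-07). The gain in CSMN less that in CPN was 0.31 ± 0.41 (95% interval -0.57 to 1.19, adjusted p = 0.746). The change from E18 to P3 was larger in CSMN by 1.72 ± 0.40 (adjusted p = 0.0256) and that from E18 to P6 by 1.99 ± 0.41 (adjusted p = 0.0101). Both of these tests were added after the levels had been seen. The P3 call was lost without CPN E18 replicate 2 (1.56), CPN P3 replicate 1 (1.67) or 2 (1.78), CSMN E18 replicate 1 (1.45), or CSMN P3 replicate 1 (1.67) or 2 (1.70), and with cyclic loess normalization (1.32), while the P6 call passed without any one array. Without the E18 arrays, the change from P3 to P14 was 1.99 in CPN, which passed the test, and 0.57 in CSMN, which did not.

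Cacna2d1, the other alpha-2-delta subunit of the group (probe set 1433643_at; chr5:15934264-16374511) and a binding site of gabapentinoid drugs, was lower in CSMN than in CPN. The CPN arrays read 9.45 and 9.36 at E18, 10.73 and 11.04 at P3, 11.83 and 11.25 at P6, then 10.75 and 10.84 at P14. The CSMN arrays read 8.64 and 8.58 at E18, 10.16, 10.29 and 10.43 at P3, 10.65 and 10.53 at P6, then 10.04 and 9.57 at P14. At no stage did the arrays of the types overlap, and both types had their highest group mean at P6. The CTPN arrays differed more from each other than any other pair, at 9.87 and 10.98. Averaged over the 4 stages, CSMN lay below CPN by -0.83 ± 0.15 (1.78-fold, adjusted p = 0.0019). Without E18 that mean was -0.84 and passed. No single stage passed the test in the main fit, with differences from -0.59 at P3 to -0.99 at P14. With array weights the differences at P3 (-0.59) and P6 (-0.95) passed. Without CSMN P14 replicate 1 the P14 difference was -1.23, and without replicate 2, with the array left at 10.04, it was smaller in size. Without either CTPN array the E18 difference of -0.79 passed.

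Cacna2d1 rose between E18 and P3 by 1.58 ± 0.20 averaged over the types (2.99-fold, adjusted p = 0.000153) and fell between P6 and P14 by 0.77 ± 0.21 (1.70-fold, adjusted p = 0.0264). Over the whole span, E18 to P14, it rose by 1.39 ± 0.30 in CPN (adjusted p = 0.00369) and by 1.19 ± 0.30 in CSMN (adjusted p = 0.0151). Without the E18 arrays neither type rose: the change from P3 to P14 was -0.09 in CPN and -0.49 in CSMN. The CSMN call was lost without CSMN E18 replicate 2 (1.16) or CSMN P14 replicate 1 (0.95). It was also lost with the mean of all probe sets, array weights and the compared groups alone. The fall after P6 was lost without CPN P6 replicate 1 (-0.62), CPN P14 replicate 1 (-0.74) or 2 (-0.79), CSMN P6 replicate 1 (-0.74) or 2 (-0.80), or CSMN P14 replicate 2 (-0.65). Other settings ended it too, among them the mean of all probe sets (-0.29), array weights and the compared groups alone.

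Cacnb4, a cytoplasmic beta subunit whose loss causes epilepsy and ataxia in the lethargic mouse (probe set 1428928_at; chr2:52428320-52676609), rose with age in both types. Its CPN values were 7.96 and 7.63 at E18, 8.73 and 8.63 at P3, 9.09 and 9.05 at P6, then 10.65 and 10.59 at P14. Its CSMN values were 7.15 and 8.08 at E18, 8.95, 8.70 and 8.38 at P3, 9.32 and 9.12 at P6, then 10.43 and 9.78 at P14. All P14 arrays, with CTPN at 10.03 and 9.98, lay above all earlier arrays. It rose from E18 to P14 by 7.08-fold in CPN (2.82 ± 0.29, adjusted p = 5.7e-06) and 5.61-fold in CSMN (2.49 ± 0.29, adjusted p = 4.08e-05). It rose by 0.97 ± 0.19 between E18 and P3 (adjusted p = 0.0039) and by 1.21 ± 0.20 between P6 and P14 (adjusted p = 0.00119). It was the only gene of the 9 whose rise from P3 to P14, with E18 left out, passed in both types, at 1.94 in CPN and 1.43 in CSMN. No type difference passed: the mean over the 4 stages was -0.14 ± 0.14, with a 95% interval of -0.44 to 0.16.

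Ryr2, a ryanodine receptor best known as the release channel of heart muscle and also expressed in forebrain neurons (probe set 1450123_at; chr13:11553099-12106945), was higher in CPN than in CSMN at P6 and P14. In CPN the arrays gave 5.41 and 5.70 at E18, 8.63 and 8.85 at P3, 9.55 and 9.69 at P6, then 9.49 and 9.58 at P14. In CSMN the arrays gave 6.73 and 6.31 at E18, 8.50, 8.21 and 8.32 at P3, 8.60 and 8.14 at P6, then 8.45 and 8.28 at P14. The CSMN arrays stayed within 8.14 to 8.60 from P3 on, while the CPN arrays of P6 and P14 read 9.49 or more, and the arrays of the types overlapped at no stage. The CTPN arrays, at 7.98 and 8.64, spanned the CSMN range. At E18 both CPN arrays and 1 CSMN array lay below the array medians, so no fold is given against that stage. The exact differences from E18 then rest on values that may hold little signal, and each is also given with those 3 values set to 6.62, an alternative added after the values had been seen.

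The Ryr2 type difference, CSMN minus CPN, was 0.97 ± 0.24 at E18 (adjusted p = 0.0174), -0.40 ± 0.22 at P3 (adjusted p = 0.81), -1.25 ± 0.24 at P6, or 2.38-fold lower (adjusted p = 0.0186), and -1.18 ± 0.24 at P14, or 2.26-fold lower (adjusted p = 0.0257). The mean over the 4 stages was -0.46 ± 0.12 (adjusted p = 0.0241) and joins opposite signs, and without E18 it was -0.94 and passed. The E18 call was lost without CPN E18 replicate 1 (0.82) or CSMN E18 replicate 1 (0.75), and with the low values at 6.62, where the difference was 0.058. The mean over stages was then -0.69 and passed. The P6 call was lost without CPN P6 replicate 1 (-1.32) or 2 (-1.18), or CSMN P6 replicate 1 (-1.48) or 2 (-1.02), and the P14 call without CPN P14 replicate 1 (-1.22) or 2 (-1.13) or CSMN P14 replicate 2 (-1.09). The call on the mean over stages was lost without replicate 2 of CPN at E18 (-0.43), P3 (-0.44), P6 (-0.45) or P14 (-0.45), or of CSMN at E18 (-0.41) or P6 (-0.41). In other settings the P14 call was lost with quantile normalization, the mean of all probe sets, array weights and the compared groups alone. The P6 call was lost with the mean of all probe sets (-0.61) and the compared groups alone. The E18 call was lost with array weights and the compared groups alone (0.97 in both). The mean over stages lost its call with the mean of all probe sets (-0.16) and array weights (-0.49).

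Ryr2 rose from E18 to P14 by 3.98 ± 0.24 in CPN (adjusted p = 5.35e-08) and by 1.84 ± 0.24 in CSMN (adjusted p = 0.000143). The change was smaller in CSMN, by -2.14 ± 0.34 (adjusted p = 0.00171). With the low values at 6.62 the rises were 2.92 and 1.68 and their difference -1.23, and all 3 passed. None of the arrays left out singly ended the call on the difference. With arrays weighted by quality, or with the compared groups fitted alone, the CSMN rise and this difference kept their values (1.84 and -2.14) but did not pass. In the tests added later, the CSMN change from E18 was smaller than the CPN change by -1.36 ± 0.33 at P3 (adjusted p = 0.0327) and by -2.22 ± 0.34 at P6 (adjusted p = 0.00106). With the low values at 6.62 they were -0.45, which did not pass, and -1.31, which did. The P3 value was lost without CPN E18 replicate 1 (-1.21), CPN P3 replicate 1 (-1.47) or 2 (-1.25), either CPN P14 array (-1.36), CSMN E18 replicate 1 (-1.15), or CSMN P3 replicate 2 (-1.29) or 3 (-1.35), and with the replicate number as a block (-1.35). With E18 left out, the change from P3 to P14 was 0.80 in CPN and 0.02 in CSMN, neither passed, and their difference was -0.78 and did not pass. So the call on a smaller CSMN change rests on the E18 arrays.

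Ryr3, known as the brain-type ryanodine receptor (probe set 1427427_at; chr2:112631354-113217405), had replicates far apart in several groups. CPN values were 8.05 and 7.47 at E18, 9.26 and 8.65 at P3, 8.55 and 9.79 at P6, then 8.03 and 7.89 at P14. CSMN values were 7.83 and 8.50 at E18, 8.75, 8.44 and 8.18 at P3, 9.10 and 8.83 at P6, then 8.85 and 7.33 at P14, and in CTPN 8.89 and 8.86. The types overlapped at every stage, and the replicates of CPN at P6 and of CSMN at P14 were over 1 unit apart. No type difference passed. Ryr3 fell by 1.04 ± 0.32 between P6 and P14 (2.06-fold, adjusted p = 0.0474). That call was held without CPN P6 replicate 1 (-1.35) or CSMN P14 replicate 1 (-1.42), and lost without any of the other 17 arrays, where the value lay between -0.66 (without CSMN P14 replicate 2) and -1.11 (without CSMN P6 replicate 2). It was -0.73 without CPN P6 replicate 2. With the replicate number as a block the value was -1.04 and did not pass.

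Cacna1e, the R-type pore subunit (probe set 1436260_at; chr1:154390806-154884785), was higher in CSMN at E18. Callosal neurons gave 8.79 and 8.62 at E18, 9.66 and 9.42 at P3, 9.27 and 9.96 at P6, then 9.52 and 9.47 at P14. Corticospinal neurons gave 10.40 and 9.76 at E18, 9.82, 9.56 and 9.84 at P3, 9.48 and 9.61 at P6, then 10.38 and 9.73 at P14, and in CTPN 9.90 and 10.02. Only at E18 and P14 did the arrays of CSMN all lie above those of CPN. The difference at E18 was 1.38 ± 0.27, or 2.60-fold (adjusted p = 0.00377), and it passed without any one array, but not with the compared groups fitted alone. The other Cacna1e probe set, 1421692_at (mean 6.89), gave 0.58 at E18 and 0.03 over the stages, and neither passed. On the brighter probe set the mean over the 4 stages was 0.52 ± 0.13, or 1.43-fold (adjusted p = 0.0239). It was 0.23 without E18, 0.27 with the mean of all probe sets and 0.49 with array weights, and none of these passed. The mean over stages lost its call without CPN E18 replicate 2 (0.50), CPN P3 replicate 2 (0.49), CPN P6 replicate 1 (0.43), CPN P14 replicate 1 (0.52) or 2 (0.51), CSMN E18 replicate 1 (0.44) or CSMN P6 replicate 2 (0.50).

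The change of Cacna1e from E18 to P6 was smaller in CSMN than in CPN by -1.45 ± 0.38 (adjusted p = 0.0415), in a test added after the levels had been seen. It passed without CSMN E18 replicate 2 (-1.77), CPN P6 replicate 1 (-1.79), or either CSMN P14 array (-1.45). It was lost without any of the other 15 arrays, with values from -1.10 (without CPN P6 replicate 2) and -1.13 (without CSMN E18 replicate 1) to -1.53 (without CPN E18 replicate 1). Cacna1e changed from E18 to P14 by 0.79 ± 0.27 in CPN (adjusted p = 0.0546) and by -0.03 ± 0.27 in CSMN (adjusted p = 0.966). The CPN value of 0.79 passed without either CPN P6 array, either CSMN E18 array or either CSMN P14 array. The CSMN change less the CPN change was -1.17 from E18 to P3, which passed without CSMN E18 replicate 2 (-1.49) or either CSMN P14 array (-1.17), and -0.82 from E18 to P14, which passed without CSMN P14 replicate 1 (-1.14). The P3 value also passed with quantile (-1.67) or cyclic loess (-1.57) normalization.

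Cacna1g, the T-type pore subunit (probe set 1423365_at; chr11:94408391-94474400), rose with age in CPN. In callosal neurons it read 8.07 and 7.21 at E18, 9.24 and 9.02 at P3, 9.15 and 9.69 at P6, then 9.48 and 9.60 at P14. In corticospinal neurons it read 9.17 and 8.10 at E18, 8.24, 8.41 and 8.48 at P3, 8.60 and 8.63 at P6, then 10.18 and 8.66 at P14, and in CTPN 9.73 and 9.30. The CSMN arrays lay above the CPN arrays at E18 and below them at P3 and P6. No type difference passed the test at any stage in the main fit. The E18 difference of 0.99 ± 0.43 (adjusted p = 0.14) passed without either CSMN P14 array, and with quantile (1.31) or cyclic loess (1.20) normalization. The P3 difference passed with array weights (-0.73) and with the compared groups alone (-0.75). Cacna1g rose from E18 to P14 in CPN by 1.90 ± 0.43, or 3.73-fold (adjusted p = 0.00539), and that call was lost without CPN E18 replicate 2 (1.47) and without the E18 stage (0.41 from P3 to P14). In CSMN the change was 0.79 ± 0.43 (adjusted p = 0.25), and it was 1.54 without CSMN P14 replicate 2. Without replicate 1 the P14 array left read 8.66, between the CSMN E18 arrays (9.17 and 8.10). The CSMN change less the CPN change was -1.11 ± 0.61 (adjusted p = 0.346). It was -1.87 without CSMN P14 replicate 1, and leaving out replicate 2 made it smaller in size. The same difference of changes was -1.75 from E18 to P3 and -1.80 from E18 to P6, and both passed without either CSMN P14 array. Both also passed with array weights and with quantile or cyclic loess normalization.

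Cacna1c, the L-type pore subunit (probe set 1435730_at; chr6:118587240-119197384), lay higher in CSMN at E18 and lower there after birth, with no stage past the test in the main fit. The callosal arrays read 7.15 and 7.50 at E18, 8.42 and 8.37 at P3, 8.06 and 8.85 at P6, then 8.25 and 8.38 at P14. The corticospinal arrays read 8.01 and 7.73 at E18, 8.06, 7.95 and 7.80 at P3, 7.58 and 7.74 at P6, then 7.90 and 6.98 at P14, and in CTPN 8.0 and 8.05. All CSMN arrays lay above CPN at E18 and below it at the later 3 stages. The differences were 0.54 ± 0.29, -0.46 ± 0.26, -0.80 ± 0.29 and -0.87 ± 0.29 in order of stage, and none passed (adjusted p from 0.200 to 0.827). Their mean of -0.40 passed without CPN P6 replicate 1 (-0.50) or CSMN P14 replicate 1 (-0.51), and without E18 (-0.71). With array weights the differences at P3 (-0.46) and P6 (-0.80) passed. Without CSMN P14 replicate 1 the P14 difference was -1.33. Without replicate 2 it was smaller in size, with the CSMN array left at 7.90 against 8.25 and 8.38 in CPN. Cacna1c rose in CPN from E18 to P14 by 0.99 ± 0.29, or 1.98-fold (adjusted p = 0.0239), a call lost without CPN E18 replicate 1 (0.82), CPN P14 replicate 1 (1.05) or 2 (0.93), and without E18 (-0.08 from P3 to P14). In CSMN the change was -0.43 ± 0.29 (adjusted p = 0.358), and it was -0.89 without CSMN P14 replicate 1. Without replicate 2 the P14 array left read 7.90, between the CSMN E18 arrays (8.01 and 7.73). The CSMN change less the CPN change was -1.42 ± 0.41 (adjusted p = 0.058), and it passed without either CPN P6 array (-1.42). It also passed with quantile (-1.66) or cyclic loess (-1.40) normalization. It was -1.88 without CSMN P14 replicate 1 and smaller in size without replicate 2. From E18 to P6 it was -1.34, and it passed without CPN P6 replicate 1 (-1.73) or either CSMN P14 array (-1.34). It also passed with quantile (-1.57) or cyclic loess (-1.47) normalization.

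Cacna1a, the P/Q-type pore subunit (probe set 1459996_at; chr8:84338631-84640251), kept within a narrow range on its brightest probe set. In CPN the arrays lay between 6.89 at E18 and 7.64 at P14, and in CSMN between 7.27 at P3 and 7.74 at E18. The CTPN arrays read 7.97 and 7.62. All neighbouring groups in the order of group means overlapped in their arrays. No comparison passed in the main fit, and the change from E18 to P14 was 0.54 ± 0.20 in CPN (adjusted p = 0.0769) and -0.22 ± 0.20 in CSMN (adjusted p = 0.525). The CPN change passed with cyclic loess normalization (0.56) and with the mean of all probe sets (0.82). The E18 type difference of 0.57 ± 0.20 (adjusted p = 0.0765) passed without either CSMN P14 array and with quantile normalization (0.67).

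Between CSMN and CPN averaged over the stages, 4 of the 9 genes differed, against 8.29% of all genes: Cacna2d3 and Cacna1e were higher in CSMN, and Cacna2d1 and Ryr2 lower. The median of the 9 differences was -0.14, against 0.06 over all genes. Without E18 the means of Cacna2d3 (1.76), Cacna2d1 (-0.84) and Ryr2 (-0.94) passed, and that of Cacna1e (0.23) did not. At E18, 2 genes were higher in CSMN, Cacna1e and Ryr2, with 12.9% of all genes called, though the Ryr2 value was lost with its low values at 6.62, and 7 of the 9 differences were above 0. The CPN arrays of that stage carried the raised progenitor, cell cycle and astrocyte markers. At P3 only Cacna2d3 passed (0.874% of genes called), at P6 Cacna2d3 and Ryr2 (1.07%), and at P14 only Ryr2 (1.39%). At each of the 3 postnatal stages 6 of the 9 differences were below 0.

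**Figure D2:**
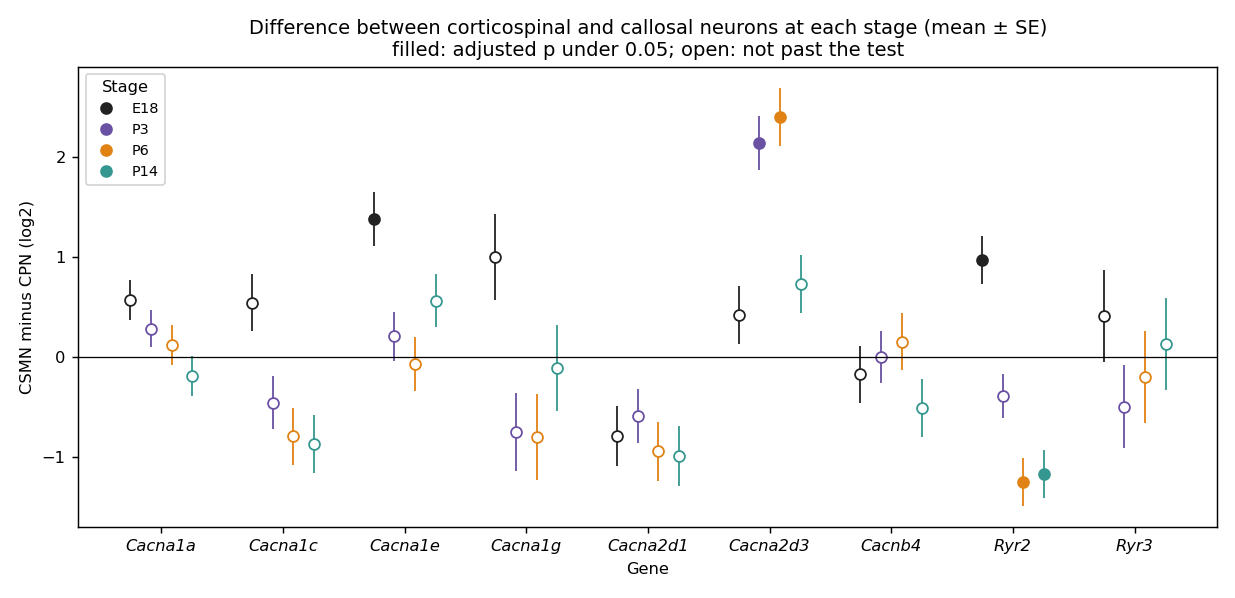
CSMN minus CPN (log2, vertical axis) for each of the 9 genes (horizontal axis), with 1 point per stage, bars of ± SE from the fit and filled points where the adjusted p is under 0.05. Cacna2d3 stands at 2.14 and 2.40 at P3 and P6, and Ryr2 goes from 0.97 at E18, a value lost with its low values at 6.62, to -1.25 at P6.

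From E18 to P14, 6 of the 9 genes rose in CPN, where 10.2% of all genes were called higher and 19.2% in either direction, and 4 rose in CSMN, where the shares were 9.27% and 15.1%. Cacna2d3, Cacnb4, Ryr2 and Cacna2d1 rose in both types, and Cacna1g and Cacna1c rose in CPN only by this count, though neither differed between the types in the test of the difference. No gene fell. In that test of the difference 1 of 9 passed, Ryr2, against 5.18% of all genes, and 8 of the 9 values were below 0. The P14 change in CPN and in CSMN had medians of 1.39 and 0.79 over the 9 genes, against 0.03 and -0.004 over all genes. With E18 replaced by P3, 2 genes rose in CPN, Cacna2d3 and Cacnb4, and 1 in CSMN, Cacnb4.

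**Figure D3:**
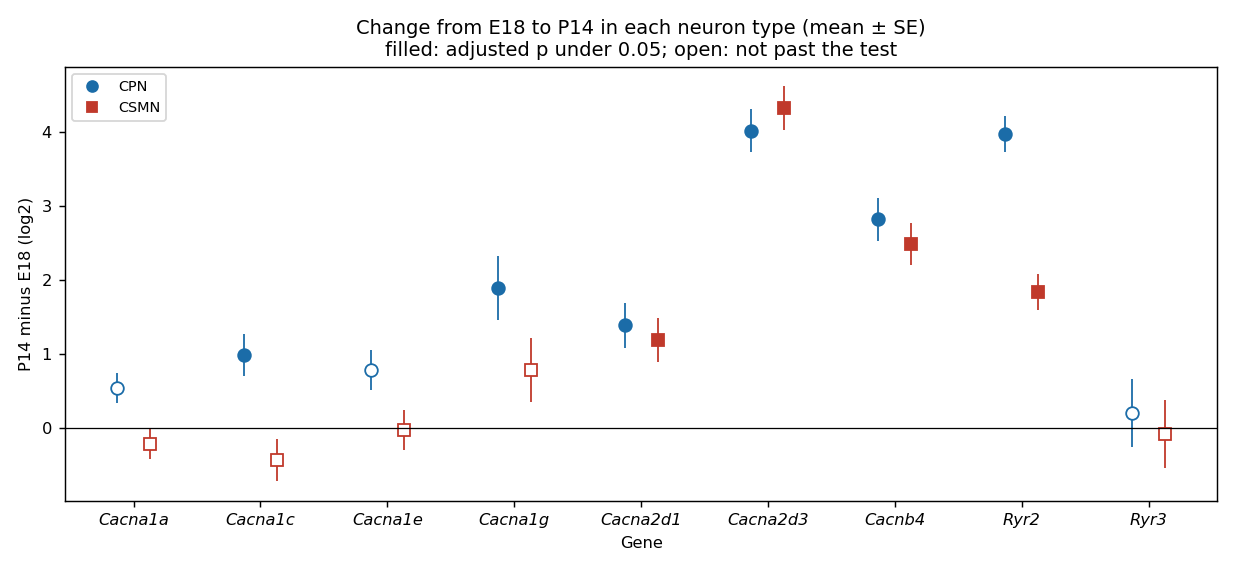
P14 minus E18 (log2, vertical axis) in CPN (circles) and CSMN (squares) for the 9 genes (horizontal axis), with bars of ± SE and filled points where the adjusted p is under 0.05. Cacna2d3 rises by 4.02 in CPN and 4.33 in CSMN, and Ryr2 rises by 3.98 in CPN and 1.84 in CSMN.

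By interval, averaged over the types, 4 genes passed between E18 and P3 and 4 between P6 and P14. Between E18 and P3, where the CPN arrays of E18 carry the raised progenitor markers, 4 genes rose, with 13.1% of all genes called: Cacna2d3 by 2.90 ± 0.20 (adjusted p = 8.76e-07), Ryr2 by 2.50 ± 0.16 (adjusted p = 7.18e-07; 1.89 with its low values at 6.62, which passed), Cacna2d1 and Cacnb4. These 4 calls passed without any one array. Cacna1c (0.57) passed as well without either CPN P6 array or either CSMN P14 array, and Ryr3 (0.74) without either CSMN P14 array. Between P3 and P6 none of the 9 passed limma's test (0.066% of genes called), while 4 had an unadjusted p under 0.05, Cacna2d3, Cacnb4, Ryr2 and Cacna2d1, with values of 0.46 to 0.57. With arrays weighted by their quality 2 of them passed, Cacna2d3 (0.56) and Cacnb4 (0.46). Between P6 and P14, 4 genes passed (12.9%): Cacnb4 and Cacna2d3 rose, and Cacna2d1 and Ryr3 fell. The rise of Cacna2d3 was 0.71 ± 0.21 (adjusted p = 0.0346), and its call was lost without CPN P3 replicate 1 or 2 (0.71), CPN P6 replicate 1 (0.60), CPN P14 replicate 1 (0.68) or 2 (0.74), or CSMN P6 replicate 1 or 2 (0.71). It was 0.44 without CSMN P14 replicate 1 and still passed. Cacna1g, at 0.46, was at 0.84 without CSMN P14 replicate 2 and smaller without replicate 1. In the tests of unequal change added later, 2 of 9 genes differed for E18 to P3 (3.72% of genes called) and 3 of 9 for E18 to P6 (5.09%), as given gene by gene above.

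The corticotectal neurons did not differ from CSMN at P14 in any of the 9 genes (0.192% of genes called), and 0 of 9 had an unadjusted p under 0.05 in limma. The 95% intervals still allow differences: -0.48 to 0.77 for Cacna2d3, -0.57 to 0.47 for Ryr2 and -0.19 to 1.77 for Ryr3. Without CSMN P14 replicate 1 the differences were 1.04 for Cacna1c and 1.55 for Ryr3. These depend on which CSMN array is kept, since replicate 1 itself lay near the CTPN arrays. It read 7.90 for Cacna1c, against 8.0 and 8.05 in CTPN, and 8.85 for Ryr3, against 8.89 and 8.86. Against CPN at P14, Ryr2 was lower in CTPN by -1.23 ± 0.24, or 2.34-fold (adjusted p = 0.0224), the only one of 9 called (1.06% of genes). That call was lost without CPN P14 replicate 1 (-1.27) or 2 (-1.18) or CTPN replicate 1 (-0.90). It was also lost with the mean of all probe sets and with the compared groups fitted alone. Cacna2d3 was at 0.88 ± 0.29 in the same comparison (adjusted p = 0.309), and it passed without either CSMN P14 array. The glutamatergic neuron list (7 of 7 genes measured) averaged 8.89 and 9.48 in CTPN against 10.30 and 10.25 in CPN and 10.16 and 8.98 in CSMN at P14, and the astrocyte list 7.10 and 7.42 against 8.24 and 8.11 in CPN. Their part in these differences was not tested. The labels name visual cortex for CTPN and sensorimotor cortex for CPN, without settling whether that is the source tissue or the injected field, and if it is the source, type and area cannot be told apart. The CSMN and CTPN comparisons with CPN share the CPN arrays of P14.

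Where a gene had other probe sets, they did not always move with the brightest one. The 3 probe sets of Cacnb4 all rose from E18 to P14, by 2.82, 3.54 and 2.08 in CPN and 2.49, 3.55 and 2.59 in CSMN. The second probe set of Cacna2d1, 1449999_a_at, rose too (1.05 in CPN, 1.29 in CSMN) and was lower in CSMN over the stages (-0.61), but it did not fall after P6 (0.09). The other Ryr2 probe set, 1421126_at, had a mean of 5.24, under every array median, and changed little: 0.18 in CPN, 0.28 in CSMN and 0.10 for the difference between them, none of which passed. So the Ryr2 results rest on a single probe set, as do those of Cacna2d3 and Cacna1g, which have no other. Cacna1a showed the converse: a dimmer probe set, 1450510_a_at (mean 5.93), rose by 2.71 in CPN and 1.67 in CSMN and passed, while the brightest did not. Ryr3 probe set 1432133_at fell in CSMN from E18 to P14 by 1.13 and passed, unlike the brightest.

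**Figure D4:**
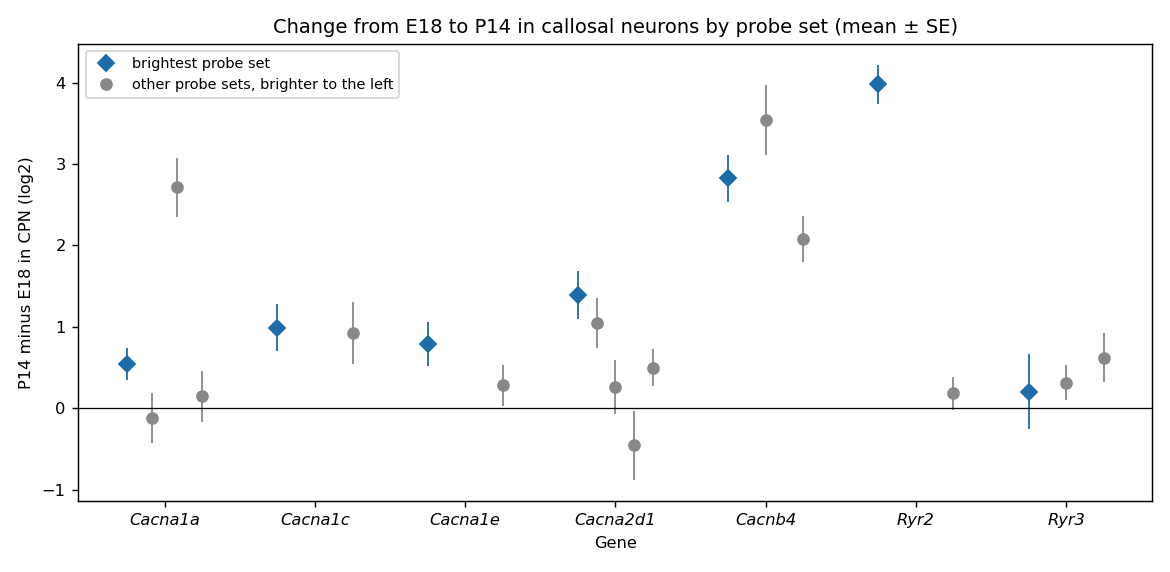
P14 minus E18 in CPN (log2, vertical axis) for each probe set of the 7 genes that have more than 1 (horizontal axis), with diamonds for the brightest probe set, circles for the others, and bars of ± SE. The Cacnb4 probe sets all lie above 2, while those of Ryr2 lie at 3.98 and 0.18 and a dimmer one of Cacna1a at 2.71.

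Other genes that handle calcium gave a frame for these values. Of 11 further voltage-gated channel subunits, 9 were measured, and 3 rose from E18 to P14 in CPN: the beta subunit genes Cacnb2 (2.36) and Cacnb1 (1.29) and the N-type pore gene Cacna1b (0.88), where 10.2% of all genes were called higher. In CSMN 1 of 9 rose, Cacnb1 (1.30), near the 9.27% of all genes. None of the 9 passed limma's test between CSMN and CPN over the stages (8.29% of all genes) or at any stage, with 0 at an unadjusted p under 0.05 over the stages and at E18, P3 and P6, and 3 at P14. Against CPN at P14, CTPN had more Cacna2d2, an alpha-2-delta gene (1.59). Of 27 further genes of release and store refilling, all measured, 6 rose and 2 fell in CPN, where 19.2% of all genes were called in either direction. They included Asph (2.77), which encodes junctin among other products, Fkbp1b (2.51), whose protein binds ryanodine receptors, Homer1 (1.69), a scaffold of inositol trisphosphate receptors, and Orai1 (-1.65), the store-operated entry channel. In CSMN 2 of the 27 rose, Fkbp1b (1.5) and the store pump gene Atp2a2 (1.82), a share under the 9.27% of all genes called higher.

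The changes of Orai1 (2.13), Asph (-2.01) and Homer1 (-1.52) from E18 to P14 differed between the types, and these comparisons use the CPN arrays of E18 with raised progenitor markers. Over the stages, 3 release genes were higher in CSMN and 2 lower, against 8.29% of all genes called, with Fkbp1b at 0.62, Homer2 at 0.57, Homer1 at 0.51 and Orai3 at -0.68. At E18, 3 of the 27 release genes were higher and 2 lower, with 12.9% of all genes called. Homer1 stood at 1.30 and Fkbp1b at 1.26 there. At P3, P6 and P14 none of the 27 passed (0.874%, 1.07% and 1.39% of all genes). The means over the stages include the E18 arrays, and no value without them is given. Of 17 calcium extrusion and mitochondrial uptake genes, 15 were measured and 7 rose in each type from E18 to P14, against 10.2% of all genes in CPN and 9.27% in CSMN. They included Slc24a2, a potassium-dependent sodium-calcium exchanger (5.76 in CPN and 4.32 in CSMN), and the plasma membrane pumps Atp2b3 (3.10 and 2.46) and Atp2b2 (2.22 and 2.21). Over the stages the sodium-calcium exchanger Slc8a3 was higher in CSMN (1.34) and Slc24a3 lower (-0.92).

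Of 24 channel partners and calcium sensors, 19 were measured. From E18 to P14, 12 rose and 1 fell in CPN, and 9 rose in CSMN, against 10.2% and 9.27% of all genes called higher. They included the kinase Camk2a (3.40 in CPN and 2.63 in CSMN), the sodium leak channel Nalcn (2.97 and 2.41), and the calcium sensor Cabp1 (2.30 and 2.15). Snap25, a vesicle fusion protein that binds presynaptic channels, rose by 3.70 in CPN, and its change was smaller in CSMN (-1.71 for the difference). Over the stages 5 partners were higher in CSMN and 1 lower, against 8.29% of all genes called, with Cabp1 at 1.03, Snap25 at 0.90, Caln1 at 0.62 and the anchoring protein Akap5 at -1.0. At E18, 1 partner was higher, Snap25 (1.76), and 1 lower, with 12.9% of all genes called. None was higher at P3, P6 or P14 (0.874%, 1.07% and 1.39% of all genes). Akap5 was lower at P3 (-1.13) and P14 (-1.26). The means over the stages include the E18 arrays, and no value without them is given. Stac, an adaptor of L-type channels, was higher in CTPN than in CSMN (1.37) and CPN (1.81) at P14, where the channel gene Cacna1c did not pass either test. Stac and Cabp1 had means of 6.09 and 6.04 over the 19 arrays, under every array median. Their differences may therefore rest on values that hold little signal.

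For the 4 genes whose group means spanned at least 2 units, the genes most like them over the 9 group means were found by Pearson r, given as a description without p, since the groups share arrays, age and array processing. Cacna2d1 was most like Adgrb3 (r = 0.996) and Dixdc1 (r = 0.972), and Cacna2d3 like Dynlt3 (r = 0.995) and Sucla2 (r = 0.992). Cacnb4 was most like Apbb1 (r = 0.992) and the exchanger gene Slc24a2 (r = 0.991), and Ryr2 like Tbc1d30 (r = 0.984) and Cpne8 (r = 0.975).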

How the data were processed

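RNA of sorted neurons was amplified by in vitro transcription in more than 1 round and hybridised to Affymetrix mouse genome arrays, per the labels' protocols. The deposited values are log2 signal per probe set, made by the authors with RMA, whose version is not given in the sources used here (per the submitters' processing notes). Of 45101 probe sets, those with a single gene symbol gave 18193 genes, each read from its brightest probe set, with no further filter on low values. Amplification from the 3' end in repeated rounds can weight probe sets near that end, so levels are compared within a probe set only.

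The 9 group means of the 19 arrays were fitted with limma 3.58.1 (R 4.3.3), with 10 residual and 4.46 prior degrees of freedom, and Benjamini-Hochberg adjustment over all genes at 0.05. The script was tested on simulated data. The members and lists were chosen with earlier results of these data known. Named from the other lists were up to 4 genes per comparison past the test with the largest differences, not all of which are printed. Alternatives were other normalizations, the mean of all probe sets, exclusion of probe sets marked as cross-hybridising, removal of dim genes, an intensity trend, array weights, the replicate number as a block, the compared groups alone, no E18 arrays, each array left out, and Ryr2 values under 6.62 set to it (added later). Replicate numbers were not used as a pairing in the main fit. Same-numbered deviations correlated over 0.1 in 19 of 36 pairs of groups (-0.22 to 0.59), and whether arrays of the same number share a source was not tested. The number of arrays limits the precision, with 2 or 3 per group. Figures were drawn with matplotlib 3.10.9 in Python 3.11.15.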

Additional observations from a re-analysis of the deposited data

Results flagged for a closer look

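Several genes changed by different amounts in CSMN and CPN after E18, by the test of that difference (CSMN change less CPN change, log2). For Ryr2 the difference was -1.36 at P3, -2.22 at P6 and -2.14 at P14, or -0.45, -1.31 and -1.23 with its values under the array medians at 6.62, of which the P3 value did not pass. For Cacna2d3 it was 1.72 at P3 and 1.99 at P6. For Cacna1e it was -1.45 at P6. The P3 and P6 tests were added after the levels had been seen. All 6 values use the CPN arrays of E18, whose progenitor, cell cycle and astrocyte markers were raised, and the part of those markers was not tested.

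For Cacna1a the arrays moved in opposite directions from E18 to P14 on the brightest probe set, by 0.54 in CPN and -0.22 in CSMN, and neither change passed. The other probe sets did not show this. In CPN and CSMN, 1450510_a_at rose by 2.71 and 1.67, 1444455_at gave 0.14 and 0.59, and 1430408_at gave -0.12 and -0.28. The difference of -0.76 between the changes did not pass the test in the fit (adjusted p = 0.149), so it is given by its directions alone.

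No group had the 4 or more arrays needed to look for a single array far from the others.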

How the results depend on the processing

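Of 35 calls on single genes, leaving out 1 array at a time gave 665 values: 575 kept the call, 90 lost it and 0 turned in sign. Other settings gave 341 values: 292 kept the call, 46 lost it and 3 turned. Of 2990 values for the 100 results that were not called, 84 were called under an alternative, and 142 changed sign with no call on either side. Without E18 (P14 against P3) Cacna1c in CPN was -0.083, Cacna2d1 -0.088 in CPN and -0.49 in CSMN.

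Other probe sets gave 45 values of 25 calls: 13 kept the call, 21 lost it and 11 turned. Ryr2 on 1421126_at was 0.15 for the type mean, 0.023 at P6, 0.21 at P14, and 0.13 and 0.10 for the unequal change at P3 and P14. Cacna2d1 on 1441608_at was -0.46 in CPN and -0.59 in CSMN from E18 to P14, on 1440397_at -0.12 from E18 to P3 and 0.24 from P6 to P14, and on 1449999_a_at 0.089 from P6 to P14. Ryr3 on 1452533_at was 0.24 from P6 to P14, and Cacna1a on 1450510_a_at 1.67 from E18 to P14 in CSMN.

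Cyclic loess normalization ended the Cacna2d3 call at P3 among the added tests (1.32). With its values under the array medians at 6.62, an alternative added after seeing the data, Ryr2 lost its call at E18 (0.058) and the unequal change at P3 (-0.45).

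The counts of called members moved as follows, with the range over left-out arrays last. For the type mean, 4 became 2 with the mean of probe sets and with array weights (2 to 5). At E18, 2 became 4 with quantile normalization, 1 with array weights and 0 with the compared groups alone (1 to 4). At P3, 1 became 5 with array weights and 2 with the groups alone (1 to 1). At P6, 2 became 1 with the mean of probe sets, 4 with array weights and 1 with the groups alone (1 to 2). At P14, 1 became 0 with quantile normalization, the mean of probe sets, array weights and the groups alone (0 to 3). From E18 to P14, CPN went from 6 to 2 without E18 (5 to 7), and CSMN from 4 to 2 with array weights and with the groups alone and to 1 without E18 (3 to 5). The unequal change to P14 went from 1 to 2 with quantile or cyclic loess normalization and to 0 with array weights, the groups alone or no E18 (1 to 4). From E18 to P3 the count of 4 became up to 6 without 1 array. From P3 to P6, 0 became 2 with array weights (0 to 0). From P6 to P14, 4 became 2 with array weights and 1 with the groups alone (1 to 4). CTPN against CSMN stayed at 0 (0 to 2), and against CPN 1 became 0 with the mean of probe sets and 2 with array weights (0 to 2). The added tests went from 2 to 4 with quantile normalization, 1 with the mean of probe sets and 1 with the replicate block at P3 (0 to 4), and from 3 to 5 with quantile or cyclic loess normalization at P6 (2 to 5). With the replicate block, the pairing by number moved only that P3 count and the Ryr3 fall after P6. The cause of these moves was not tested. Renormalizing moved the median of all genes by -0.08 to 0.03. It moved the share of called genes that were higher from E18 to P14 in CSMN from 61.3% to 47.2% with quantile normalization. In that setting the share above 0 went from 92.8% to 71.6% for the unequal change to P3. It went from 90.0% to 68.8% for the unequal change to P6, and from 30.8% to 48.1% for the E18 type difference. Groups of 2 or 3 arrays limit the precision of every count.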
